A study of Rattus norvegicus with 6 samples.

Results

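The genes described here are 10 rat genes of epithelial sodium, anion and water transport, picked by symbol from the 40995 genes of the deposited tables. They are the sodium channel subunit genes Scnn1a, Scnn1b and Scnn1g, the ubiquitin ligase gene Nedd4l, the anion channel and exchanger genes Cftr, Slc26a4, Slc26a9 and Ano1, the cotransporter gene Slc12a2 and the water channel gene Aqp5. All 10 matched a single row, and all 10 passed the filter on low counts in both fits. They were measured by mRNA sequencing of lung tissue from 3 knockout (KO) and 3 wild-type (WT) rats. The KO rats belong to the crTMPRSS2 line, in which Tmprss2 was edited with CRISPR/Cas9, and the WT rats carry no edit. All 6 share a Sprague-Dawley background, were left without treatment and carry the same batch label. The sources used here do not give sex, age, litter or the number of founders of the line. Values of the KO against WT contrast were known when the 10 genes were chosen, above all that Slc26a4 was among the few genes called. Their values are therefore given as a description, with confidence intervals and without p-values, and the number of members called is no evidence about the set.

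The liquid that lines the airways and alveoli is set by absorption of sodium and secretion of anions. Sodium enters the cell through the epithelial sodium channel (ENaC), a complex of alpha, beta and gamma subunits at the luminal membrane, and leaves at the base through the Na,K-ATPase. Chloride and bicarbonate leave through CFTR, the calcium-activated channel TMEM16A (Ano1) and members of the SLC26 family, among them pendrin (Slc26a4), which exchanges chloride for iodide, bicarbonate or thiocyanate. Several serine proteases of the cell surface cleave ENaC subunits and raise the activity of the channel, and TMPRSS2 has been described among them in cell culture. Pendrin of human and mouse airway epithelium is low at rest and is induced by the cytokines IL-4, IL-13 and IL-17A.

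Promoter windows of 300 bases are shown for pairs of related genes that differed in level or in fold change, the exchanger genes Slc26a4 and Slc26a9 and the ENaC genes Scnn1b and Scnn1g. The sequences are RefSeq's, build GRCr8, a different build from that of the deposited coordinates. Capitals mark the 50 bases from the annotated transcription start.
Slc26a4 (chr6:53873167-53873466, minus strand): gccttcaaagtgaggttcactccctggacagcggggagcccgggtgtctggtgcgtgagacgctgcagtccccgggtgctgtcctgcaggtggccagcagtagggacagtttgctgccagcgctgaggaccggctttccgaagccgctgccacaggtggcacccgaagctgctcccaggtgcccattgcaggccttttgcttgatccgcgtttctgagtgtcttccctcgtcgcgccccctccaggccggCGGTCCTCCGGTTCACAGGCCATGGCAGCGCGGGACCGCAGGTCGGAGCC
Slc26a9 (chr13:45729833-45730132, plus strand): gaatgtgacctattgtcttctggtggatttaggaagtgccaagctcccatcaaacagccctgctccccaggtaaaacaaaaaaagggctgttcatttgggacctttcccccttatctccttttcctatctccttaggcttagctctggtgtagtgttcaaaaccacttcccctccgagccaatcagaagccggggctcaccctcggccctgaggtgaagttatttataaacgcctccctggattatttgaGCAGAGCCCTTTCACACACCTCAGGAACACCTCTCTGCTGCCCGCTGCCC
Scnn1b (chr1:185861126-185861425, plus strand): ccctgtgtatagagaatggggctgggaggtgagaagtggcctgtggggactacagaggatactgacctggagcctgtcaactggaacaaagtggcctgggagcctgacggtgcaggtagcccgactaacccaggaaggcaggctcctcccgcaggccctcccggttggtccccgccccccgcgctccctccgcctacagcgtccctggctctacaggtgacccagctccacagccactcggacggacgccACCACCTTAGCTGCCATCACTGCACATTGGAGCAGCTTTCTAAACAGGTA
Scnn1g (chr1:185735975-185736274, plus strand): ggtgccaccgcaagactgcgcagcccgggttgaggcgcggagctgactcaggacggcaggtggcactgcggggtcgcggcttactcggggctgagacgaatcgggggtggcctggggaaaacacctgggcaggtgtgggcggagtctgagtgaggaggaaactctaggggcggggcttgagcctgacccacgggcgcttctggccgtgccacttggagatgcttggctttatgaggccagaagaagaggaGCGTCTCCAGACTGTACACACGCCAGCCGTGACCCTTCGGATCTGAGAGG

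A promoter window was found for 9 of the 10 genes; Scnn1a had none. The Slc26a4 window held 67.0% G and C and 22 CG dinucleotides, and the Slc26a9 window 51.3% and 5, against medians of 51.7% and 7 over 33469 rat promoters. The Scnn1b window held 62.7% G and C and 12 CG dinucleotides, and the Scnn1g window 65.0% and 21. The window at the annotated start was thus GC-rich for the pendrin gene and not for its paralog. Whether these are the starts used in lung was not tested. The letters TATAAA, the TATA box, were found on either strand in 14.2% of all windows. Among the 9 member windows they occurred in Slc26a9 alone, where overlapping matches on opposite strands began 28 and 26 bases before the start. The AP-1 letters TGANTCA, present in 7.33% of all windows, occurred in Scnn1g alone, as TGACTCA 207 bases before the start. Matches of the STAT6 motif, TTC and GAA spaced by 4 bases (7.28% of all windows), the STAT motif, TTC and GAA spaced by 3 bases (8.87%), the NF-kappaB motif (0.362%), the cAMP response element TGACGTCA (1.83%) and the glucocorticoid half-site AGAACA (20.7%) were found in none of the 9, which says only that these letters are not in these windows.

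Read counts totalled 29933359 to 30514778 in the KO libraries and 33033732 to 36895162 in the WT libraries. WT replicate 1 stood apart, at 108.6 on the first principal component of log2 CPM (depth-scaled counts), where the other 5 libraries lay between -30.6 and -9.09. It carried RNA of squamous epithelium and skeletal muscle: the 8 squamous markers summed to 2075 FPKM there and to 0.891 to 1.32 FPKM elsewhere, and the 8 skeletal muscle markers to 6677 FPKM there and to 18.5 to 38.6 FPKM elsewhere. FPKM is the deposited level, in reads per kilobase of gene length scaled by a DESeq2-type size factor of the library, and allows genes to be compared with each other. Fold changes of the 10 genes are given with all 6 libraries and without WT replicate 1. Tmprss2, the edited gene, stood at 12.0, 14.6 and 12.2 FPKM in KO replicates 1 to 3, against 13.3, 16.1 and 17.1 FPKM in WT replicates 1 to 3, and was called in neither fit. Its total mRNA does not show whether the edit disrupts the protein, so it does not check the genotype labels.

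The 10 genes spanned a wide range of levels. Aqp5, the water channel of alveolar type 1 and gland cells, stood highest at 250 to 337 FPKM over the 6 libraries, above 99.0% of the tested genes. Scnn1a followed at 90.2 to 107 FPKM, in a range of its own. Next came Scnn1g (17.3 to 24.0 FPKM), Slc12a2 (13.6 to 22.8 FPKM), Scnn1b (10.4 to 19.1 FPKM), Ano1 (12.9 to 16.7 FPKM) and Slc26a9 (10.9 to 15.9 FPKM). Each of these 5 overlapped its neighbour in the order, and Scnn1b was above Ano1 in 3 of the 6 libraries. Nedd4l (7.57 to 8.91 FPKM) lay below all 5 and did not overlap Slc26a9. Cftr (0.903 to 1.75 FPKM) and Slc26a4 (0.158 to 1.11 FPKM) came last. Cftr was lowest and Slc26a4 highest in WT replicate 1, and Slc26a4 was below Cftr in the other 5 libraries.

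**Figure D1:**
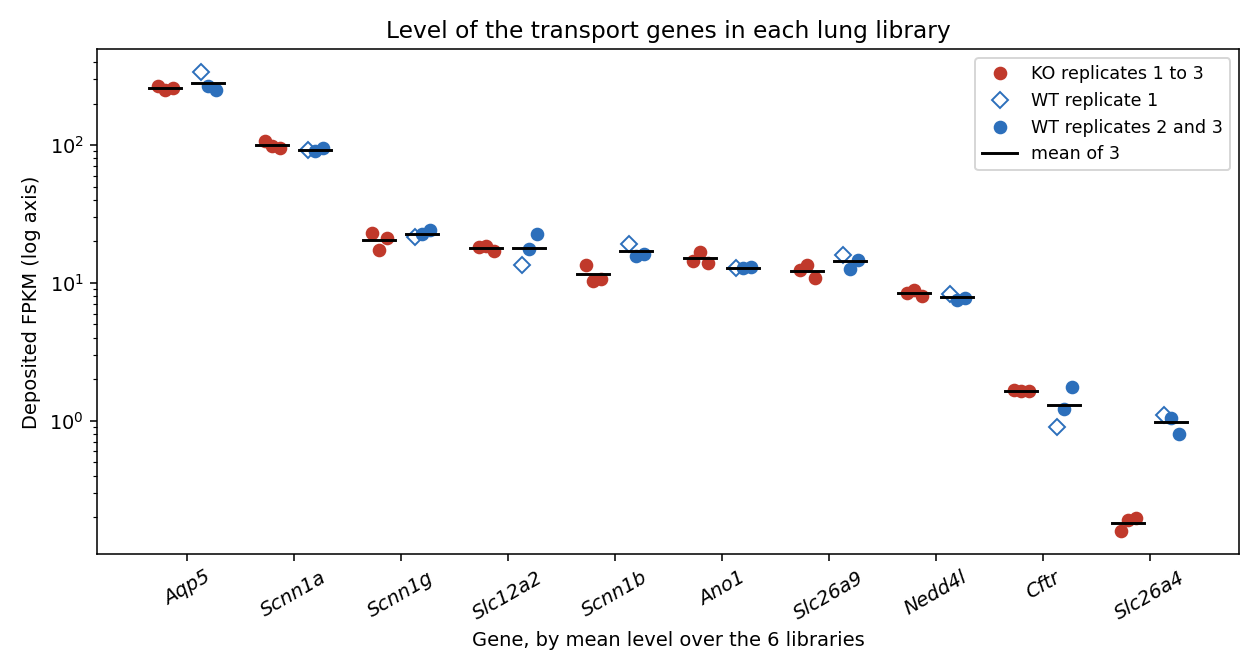
Deposited FPKM of the 10 transport genes (log axis) in KO libraries (left of each pair, red) and WT libraries (right, blue; open diamond, WT replicate 1), with bars at the mean of 3. Slc26a4 is the gene whose groups lie farthest apart, with KO libraries at 0.158 to 0.198 FPKM and WT libraries at 0.796 to 1.11 FPKM, and Aqp5 is the highest gene in every library.

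Pendrin mRNA was low in all lungs and lower still in the KO lungs. Slc26a4 (gene ID 29440; chromosome 6, 48107575 to 48153762 of mRatBN7.2, minus strand) had 0.158, 0.189 and 0.198 FPKM in KO replicates 1 to 3, against 1.11, 1.05 and 0.796 FPKM in WT replicates 1 to 3. In reads, that was 47, 58 and 60 in the KO libraries and 312, 336 and 286 in the WT libraries. Every KO library was far below every WT library, and the spread within each group was small beside the gap. The means were 0.182 ± 0.0212 FPKM in KO and 0.985 ± 0.167 FPKM in WT (SD, n = 3 each), so that the KO level was 18.5% of the WT level. This is a log2 fold change of -2.43 (SE 0.22, with a 95% confidence interval of -2.95 to -1.91). Without WT replicate 1 it was -2.34 (SE 0.21, interval -2.81 to -1.86), so the difference was about as large without the library that stood apart.

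Slc26a4 was the single member called by edgeR's quasi-likelihood test at an adjusted p under 0.05, in both fits. With all 6 libraries 0.0542% of the 18464 tested genes were called, 0.0379% lower and 0.0162% higher in KO. Without WT replicate 1 the share was 3.99% of 18994, 2.34% lower and 1.65% higher. Since the gene was chosen on this contrast, nothing is read from its call against these shares. With all 6 libraries the call was lost when any KO library or WT replicate 2 was left out, at log2 fold changes of -2.34 without KO replicate 1, -2.46 without KO replicate 2, -2.49 without KO replicate 3 and -2.37 without WT replicate 2. It was also lost with limma-voom (-2.40), with limma on log2(FPKM + 1) (-0.74) or log2(FPKM + 0.1) (-1.94), and with the replicate number as a block (-2.42). In bulk tissue, fewer cells of a type and less RNA per cell cannot be told apart. In the authors' deposited table of KO against WT, which lists 192 genes, Slc26a4 is the only one of the 10, seventh by p, with a log2 fold change of -2.44. The smallest absolute log2 fold change listed there is 1.00. Every other member had a smaller one in both fits here, so their absence from it tells nothing of their p-values. A pair of genes transcribed from the opposite strand, LOC102555378 and LOC120103520, overlap Slc26a4, but they had at most 5 reads in any library.

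**Figure D2:**
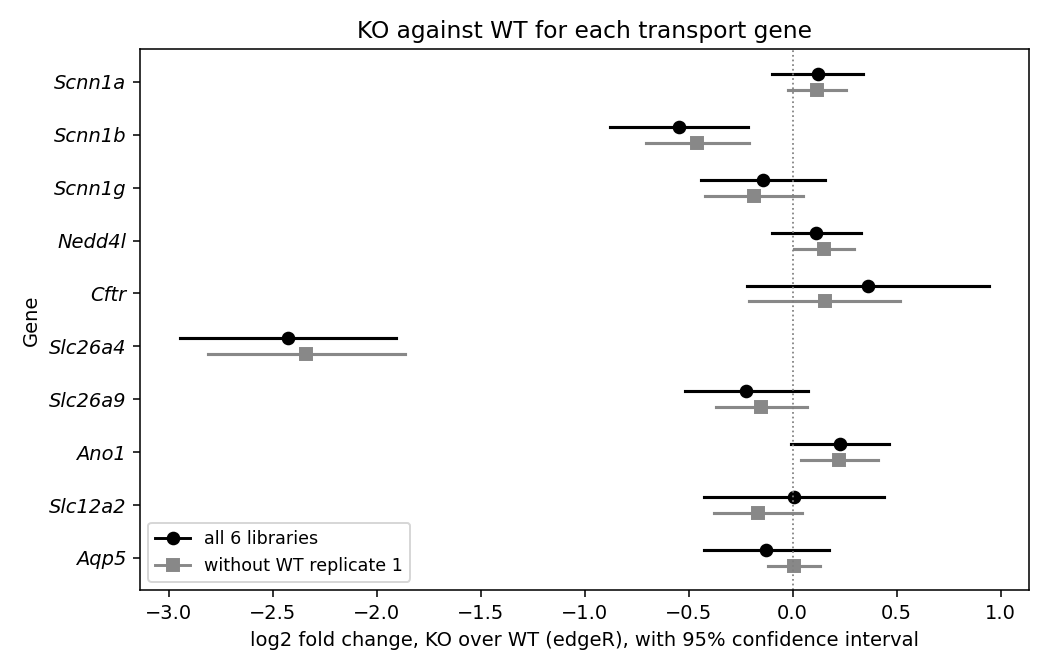
log2 fold change of KO over WT for each transport gene with its 95% confidence interval, from the fit with all 6 libraries (black circles) and without WT replicate 1 (grey squares). Slc26a4 lies at -2.43 and -2.34, the Scnn1b intervals lie below 0, and the other 8 genes lie between -0.22 and 0.36.

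Thyroid follicular cells, a known site of pendrin, were hardly represented. Of their markers, thyroglobulin (Tg) was at most 0.141 FPKM in any library, and Tshr, the thyrotropin receptor, was at 2.22 to 3.33 FPKM in KO and 2.62 to 3.14 FPKM in WT. Pax8, a transcription factor of thyroid and kidney, had 0.181, 0.226 and 0.153 FPKM in KO replicates 1 to 3, against 0.192, 0.349 and 0.450 FPKM in WT replicates 1 to 3, with overlapping groups. It stood at -0.82 with all 6 libraries and at -1.09 without WT replicate 1, where it was not called but was the 1 tested thyroid marker with an unadjusted p under 0.05. Over all 18994 genes tested in that fit, 3380 had such a p, so nothing is read from counts of this kind. Foxe1 was too low to be tested, at 0.0111 to 0.0676 FPKM in KO and 0.0190 to 0.594 FPKM in WT. Of the markers of pulmonary ionocytes, a rare CFTR-rich airway cell, the defining transcription factors were at or near 0: Ascl3 was listed at 0 in all 6 libraries and Foxi1 did not exceed 0.111 FPKM. The 11 ionocyte markers summed to 43.0 to 50.1 FPKM in KO and 41.3 to 49.3 FPKM in WT, most of it Atp6v1c2, and 0 of the 8 tested without WT replicate 1 were called by edgeR, with 1 at an unadjusted p under 0.05 and 0 called by DESeq2. The goblet cell markers summed to 12.6 to 18.3 FPKM in KO, 11.2 FPKM in WT replicate 1 and 18.6 and 20.9 FPKM in WT replicates 2 and 3. Of the 4 goblet markers tested without WT replicate 1, 2 were above 0 and 2 below 0, and edgeR called 0. Club cell markers summed to 12438 to 14248 FPKM in KO and 8413 to 10653 FPKM in WT. Of 8 club markers, Scgb1a1 and Scgb3a2 were called without WT replicate 1, both higher in KO, and 0 were called lower. Mesothelial markers summed to 168 to 187 FPKM in KO and 244 to 278 FPKM in WT, with 7 of 8 called lower in that fit, and natural killer cell markers to 114 to 115 FPKM in KO and 12.1 to 61.2 FPKM in WT, with 6 of 8 called higher. The part of these shifts in the Slc26a4 difference was not tested.

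The genes next to Slc26a4 were not called. Within 1 Mb of its start, taken as the lowest coordinate, lay 34 other genes, of which 15 were tested. With edgeR 0 of the 15 were called in either fit, 0 and 1 had an unadjusted p under 0.05 with all 6 libraries and without WT replicate 1, and DESeq2 called 0 in either. Over all tested genes, 2092 of 18464 with all 6 libraries and 3380 of 18994 without WT replicate 1 had an unadjusted p under 0.05. DESeq2 called 501 and 1184 of them. The share called by edgeR was 0.0542% with all 6 libraries and 3.99% without WT replicate 1. At those shares 0 calls among 15 genes says little about the region. The log2 fold changes of the 15 ran from -0.41 to 0.33 with all 6 libraries and from -0.64 to 0.19 without WT replicate 1. The lowest in both was Slc26a3, the chloride-bicarbonate exchanger of the gut, which lies 83.7 kb away and averaged 0.511 ± 0.193 FPKM in KO and 0.682 ± 0.201 FPKM in WT (SD, n = 3 each), with overlapping groups. The 1 gene with an unadjusted p under 0.05 without WT replicate 1 was Lamb1, 272 kb away on the same side. It stood at -0.24 (interval -0.43 to -0.05) in that fit and at -0.24 (interval -0.49 to 0.01) with all 6 libraries. On the same side, Dld (a subunit of the pyruvate dehydrogenase complex) and Cbll1 (an E3 ubiquitin ligase) stood at 0.18 and 0.13 with all 6 libraries and at 0.05 and -0.02 without WT replicate 1. On the other side, Bcap29, Dus4l and Cog5 stood at 0.21, 0.18 and -0.07 with all 6 libraries and at -0.07, 0.09 and -0.10 without WT replicate 1, so the signs of Cbll1 and Bcap29 turned with that library.

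**Figure D3:**
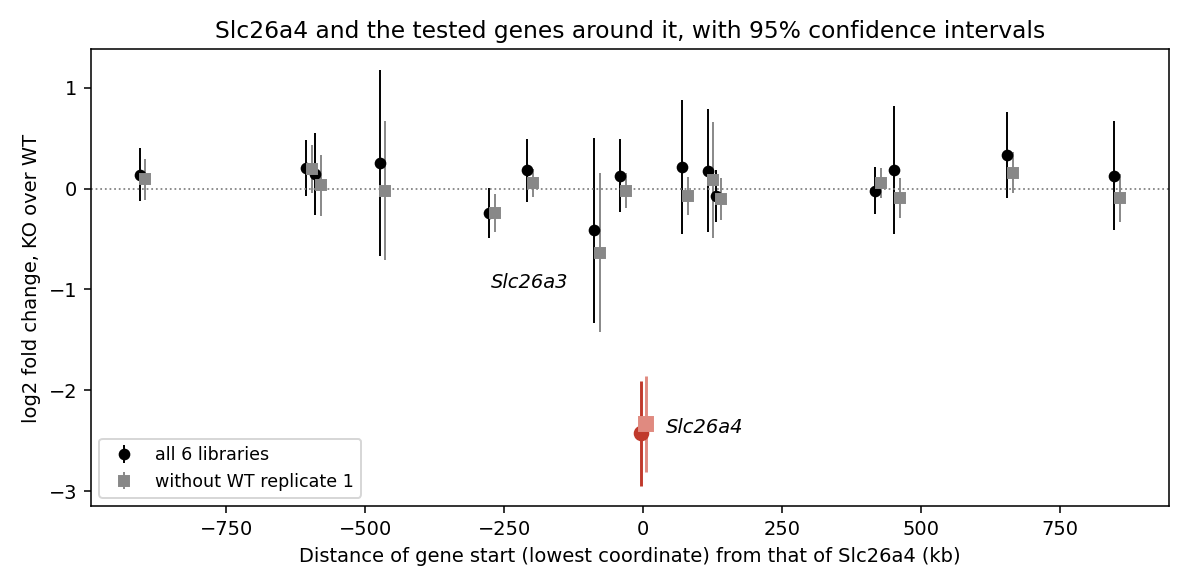
log2 fold change of KO over WT with 95% confidence intervals for Slc26a4 (red) and the 15 tested genes within 1 Mb (all 6 libraries, black; without WT replicate 1, grey), by distance between gene starts in kb. The neighbours lie between -0.64 and 0.33, and Slc26a4 lies below -2 in both fits.

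The genes whose profile over the 6 libraries was closest to that of Slc26a4 were sought among 15861 tested genes with a mean of at least 1 CPM. The measure was the root mean square difference of centred log2(CPM + 0.5). The 5 nearest were the noncoding LOC120100679 (0.19 log2 units), Rspo4, a Wnt signalling agonist of the R-spondin family (0.22), LOC103691939 (0.23), Ndufa10l1 (0.25) and the noncoding LOC108349236 (0.27). Rspo4 had 0.0734, 0.0712 and 0.130 FPKM in KO replicates 1 to 3, against 0.792, 0.703 and 0.395 FPKM in WT replicates 1 to 3. All 5 were lower in every KO library than in any WT library. The measure uses the contrast that drew attention to Slc26a4 and describes likeness alone. The added 0.5 CPM shrinks differences at low levels, so a small distance does not mean an equal fold change. With all 6 libraries LOC120100679 stood at a log2 fold change of -4.10, against -2.43 for Slc26a4. Ndufa10l1 is a paralog of Ndufa10, and its count is uncertain where reads match both.

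Of the 3 ENaC subunit genes edgeR called 0 in either fit and DESeq2 called 1, Scnn1b, in both. Over all tested genes DESeq2 called 501 of 18464 with all 6 libraries and 1184 of 18994 without WT replicate 1. The fold changes of the 3 subunit genes were not tested against each other. Scnn1a, the pore-forming alpha subunit (chromosome 4, 158122962 to 158146184), had 107, 99.0 and 95.3 FPKM in KO replicates 1 to 3, against 92.9, 90.2 and 95.2 FPKM in WT replicates 1 to 3. The groups were all but touching, since KO replicate 3 and WT replicate 3 were almost equal. Its log2 fold change was 0.12 (SE 0.09, interval -0.10 to 0.34) with all 6 libraries and 0.12 (SE 0.06) without WT replicate 1. LOC120102550, on the opposite strand, shares 350 bases with Scnn1a and had 252 to 302 reads in KO and 204 to 306 in WT. Strand handling is not given in the sources used here, so reads of that stretch cannot be assigned, but Scnn1a itself had 9218 to 12072 reads.

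Scnn1b, the beta subunit (chromosome 1, 176430063 to 176484451), had 13.6, 10.4 and 10.7 FPKM in KO replicates 1 to 3, against 19.1, 15.6 and 16.2 FPKM in WT replicates 1 to 3. All KO libraries were below all WT libraries. The means were 11.6 ± 1.78 FPKM in KO and 17.0 ± 1.87 FPKM in WT (SD, n = 3 each), a KO level of 68.1% of WT. The fitted log2 fold change was -0.55 (SE 0.14, interval -0.88 to -0.22) and -0.46 (SE 0.11, interval -0.71 to -0.21) without WT replicate 1. Scnn1b was not called by edgeR in either fit. Besides DESeq2, limma-voom called it without WT replicate 1.

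Scnn1g, the gamma subunit, whose extracellular loop is a substrate of channel-activating proteases, lies 91.2 kb from Scnn1b on the same strand of chromosome 1 (176304942 to 176338816). It had 23.2, 17.3 and 21.1 FPKM in KO replicates 1 to 3, against 21.6, 22.7 and 24.0 FPKM in WT replicates 1 to 3. The groups overlapped, with KO replicate 1 above WT replicates 1 and 2. Its log2 fold change was -0.14 (SE 0.13, interval -0.44 to 0.16) and -0.18 (SE 0.11, interval -0.42 to 0.05) without WT replicate 1.

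Ratios within a library do not depend on the scaling between libraries. Scnn1b amounted to 12.7%, 10.5% and 11.3% of Scnn1a FPKM in KO replicates 1 to 3, against 20.6%, 17.3% and 17.0% in WT replicates 1 to 3. Scnn1g amounted to 21.7%, 17.4% and 22.2% of Scnn1a in KO, against 23.2%, 25.1% and 25.2% in WT. Scnn1b per Scnn1g was 58.6%, 60.0% and 50.8% in KO, against 88.6%, 68.8% and 67.5% in WT. None of the 3 ratios overlapped between genotypes, and in all 6 libraries the order was alpha above gamma above beta. The 3 ratios share genes and are not independent. The share of all gene pairs without overlap was not computed, and 22.7% of single tested genes had none with all 6 libraries. Slc12a2 per Cftr did not overlap either, although each of those genes did, so the lack of overlap is not particular to ENaC. WT replicate 1 had the highest ratios of beta to alpha and of beta to gamma, and the mean ratio of beta to alpha in WT replicates 2 and 3 was 17.2%, against 11.5% in KO.

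**Figure D4:**
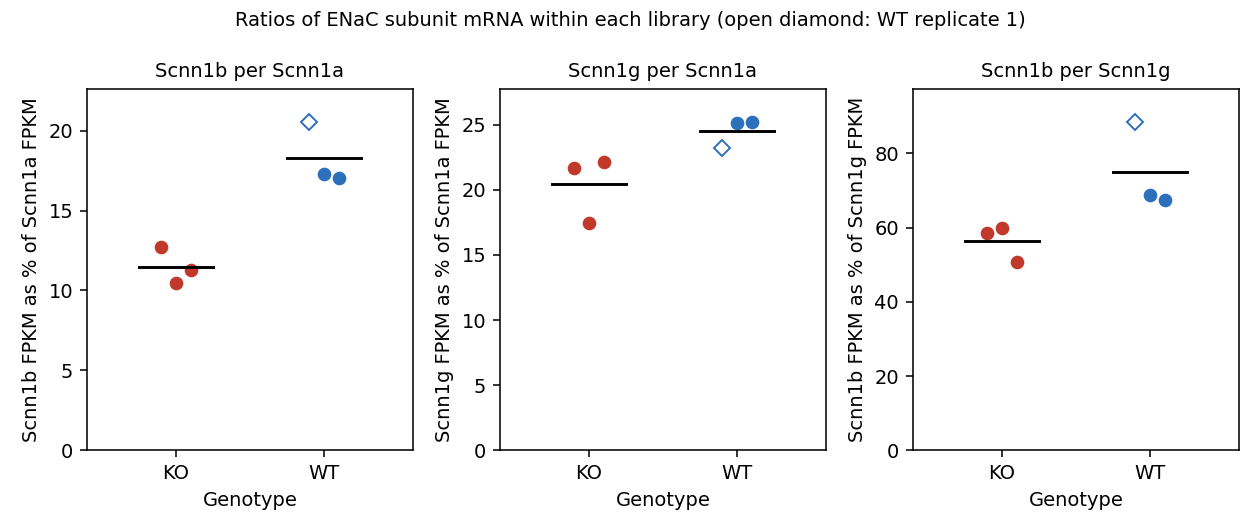
FPKM of one ENaC subunit gene as a percentage of another in each library, KO (red) left and WT (blue; open diamond, WT replicate 1) right, with bars at the mean of 3. KO libraries lie below all WT libraries in each panel, and the gap is narrowest for Scnn1g per Scnn1a, at 22.2% in the highest KO library and 23.2% in the lowest WT library.

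Nedd4l encodes the ubiquitin ligase that binds ENaC subunits and sends them for degradation. It had 8.49, 8.91 and 8.03 FPKM in KO replicates 1 to 3, against 8.34, 7.57 and 7.72 FPKM in WT replicates 1 to 3. The KO range overlapped WT replicate 1 and lay above WT replicates 2 and 3. With all 6 libraries the log2 fold change was 0.11 (SE 0.09, interval -0.10 to 0.33) and 0.15 (SE 0.07, interval 0.01 to 0.30) without WT replicate 1, and it was called in neither fit. Per Scnn1a the level was 8.46 ± 0.532% in KO and 8.49 ± 0.444% in WT (SD, n = 3 each), which overlapped.

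Of the other anion pathways, Cftr, the chloride and bicarbonate channel mutated in cystic fibrosis, had 1.66, 1.65 and 1.65 FPKM in KO replicates 1 to 3, against 0.903, 1.22 and 1.75 FPKM in WT replicates 1 to 3. The KO libraries were nearly identical, while the WT libraries were spread on both sides of them and lowest in WT replicate 1. The log2 fold change of 0.36 (SE 0.25, interval -0.22 to 0.94) became 0.16 (SE 0.16, interval -0.21 to 0.52) without that library. Cftr mRNA was thus low in whole lung, with 173 to 428 reads per library.

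Slc26a9, a chloride transporter of airway epithelium and the other SLC26 gene among the 10, had 12.5, 13.5 and 10.9 FPKM in KO replicates 1 to 3, against 15.9, 12.5 and 14.8 FPKM in WT replicates 1 to 3. The groups overlapped. Its log2 fold change was -0.22 (SE 0.13, interval -0.52 to 0.07) and -0.15 (SE 0.10, interval -0.37 to 0.07) without WT replicate 1. Slc26a4 amounted to 1.27%, 1.40% and 1.82% of Slc26a9 FPKM in KO replicates 1 to 3, against 6.98%, 8.37% and 5.38% in WT replicates 1 to 3. Pendrin mRNA was a small share of its paralog's in every library.

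Ano1, the calcium-activated chloride channel of secretory epithelium and airway smooth muscle, had 14.5, 16.7 and 14.0 FPKM in KO replicates 1 to 3, against 12.9, 12.9 and 13.0 FPKM in WT replicates 1 to 3. All KO libraries were above all WT libraries, and the WT libraries were almost equal. Its log2 fold change was 0.23 (SE 0.10, interval -0.01 to 0.47), and 0.22 (SE 0.08, interval 0.04 to 0.41) without WT replicate 1; it was not called. Smooth muscle markers summed to 680 to 728 FPKM in KO, 1239 FPKM in WT replicate 1 and 559 and 678 FPKM in WT replicates 2 and 3, and their part in the Ano1 values was not tested.

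Slc12a2, the basolateral sodium, potassium and chloride cotransporter NKCC1 that loads secretory cells with chloride, had 18.4, 18.6 and 17.2 FPKM in KO replicates 1 to 3, against 13.6, 17.7 and 22.8 FPKM in WT replicates 1 to 3. The KO libraries lay within the WT range, and the means were 18.0 ± 0.751 FPKM in KO and 18.0 ± 4.64 FPKM in WT (SD, n = 3 each). Its log2 fold change was 0.01 (SE 0.18, interval -0.43 to 0.44) and -0.17 (SE 0.09, interval -0.38 to 0.04) without WT replicate 1. Its sign also turned, at values near 0, without KO replicate 1, KO replicate 2 or WT replicate 2, so no direction is given. Aqp5 had 267, 251 and 259 FPKM in KO replicates 1 to 3, against 337, 267 and 250 FPKM in WT replicates 1 to 3. WT replicate 1 was the highest and the other 5 were close together. For Aqp5 the log2 fold change was -0.13 (SE 0.13, interval -0.43 to 0.17), and 0.01 (SE 0.06, interval -0.12 to 0.13) without that library. Over the same libraries the 10 markers of alveolar type 1 cells summed to 2904 to 3153 FPKM in KO and 3137 to 3494 FPKM in WT. The 10 of alveolar type 2 cells, which also express ENaC, summed to 14341 to 15434 FPKM in KO. In WT replicates 1 to 3 they summed to 27844, 17788 and 16795 FPKM. Without WT replicate 1, 9 of the 10 type 2 markers were below 0, against 49.3% of all tested genes. In that fit edgeR called 2 of them lower, against 2.34% of all tested genes, and 0 type 1 markers. The part of these cell types in the values of Aqp5 and the ENaC genes was not tested.

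As a set, 5 of the 10 genes had a log2 fold change above 0 and 5 below 0 in each fit, with a median of -0.06 with all 6 libraries and -0.07 without WT replicate 1, against -0.00 and 0.00 over all tested genes. The groups did not overlap in FPKM for 4 of the 10 with all 6 libraries, where 22.7% of tested genes had no overlap. Slc26a4 and Scnn1b were lower in every KO library (11.7% of tested genes), and Scnn1a and Ano1 higher (11% of tested genes). Without WT replicate 1 Nedd4l joined the higher ones, for 5 of 10 against 34.5% of tested genes, 17.7% lower and 16.9% higher. These shares were fixed in part by how the genes were chosen, and nothing is read from them.

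Around the 10 genes, 12 lists of transport and regulatory genes held 192 symbols, of which 158 were tested with all 6 libraries and 159 without WT replicate 1. With all 6 libraries edgeR called 1, Lcn2, while 22 had an unadjusted p under 0.05 and DESeq2 called 9. Over all 18464 genes tested there, 2092 had such a p and DESeq2 called 501. Without WT replicate 1 edgeR called 11, 2 higher and 9 lower, which is 6.92% against 3.99% of all tested genes. In that fit 39 had an unadjusted p under 0.05 and DESeq2 called 19. Over all 18994 genes tested there, 3380 had such a p and DESeq2 called 1184. The lists were chosen with earlier results of these data known, so nothing is read from these shares. Every log2 fold change and adjusted p below is edgeR's in the fit without WT replicate 1 unless another is named. With all 6 libraries edgeR called none of these genes other than Lcn2. The 9 that DESeq2 called with all 6 libraries were 2 ENaC regulators, 1 potassium channel gene and 6 of the cytokine lists. Of those 6, 4 were in the IL-4 and IL-13 list and 2 in the IL-17 list.

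The corticosteroid and kinase regulators of ENaC held 2 of 15 genes called lower and 0 higher. Sgk1, the kinase that restrains Nedd4l and is induced by corticosteroids, had 22.3, 21.3 and 20.0 FPKM in KO replicates 1 to 3, against 41.9, 30.6 and 29.9 FPKM in WT replicates 1 to 3. Its level fell by 0.51 in log2 units, with an SE of 0.07 (adjusted p = 0.00315). Nr3c2, the mineralocorticoid receptor, averaged 3.68 ± 0.250 FPKM in KO and 5.33 ± 0.507 FPKM in WT (SD, n = 3 each) and fell by 0.53 (SE 0.10, adjusted p = 0.0208). Tsc22d3, the glucocorticoid-induced leucine zipper protein, stood at -0.52 (-0.37 with all 6 libraries) and did not pass (adjusted p = 0.0663). The median of the list was -0.05, against 0.00 over all tested genes.

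None of the 14 tested proteases and inhibitors that act on ENaC was called by edgeR, with 3 at an unadjusted p under 0.05 and 3 called by DESeq2. The smallest p were those of Tmprss2 itself at -0.36 (adjusted p = 0.0589) and of the lysosomal cathepsins Ctss at -0.34 (-0.37 with all 6 libraries) and Ctsb at -0.21 (-0.42). The Na,K-ATPase list held 2 of 12 genes called higher, both small FXYD regulators of the pump. Fxyd2 had 24.4, 23.5 and 23.5 FPKM in KO replicates 1 to 3, against 21.8, 16.2 and 11.4 FPKM in WT replicates 1 to 3, and rose by 0.79 (SE 0.15, adjusted p = 0.0185). Fxyd1, phospholemman, averaged 37.1 ± 1.01 FPKM in KO and 35.1 ± 9.12 FPKM in WT (SD, n = 3 each), with WT replicate 1 the highest library at 45.7 FPKM, and rose by 0.31 (SE 0.06, adjusted p = 0.0268) without that library. Fxyd6 stood at 0.17 and, with its sign turned, at -0.15 with all 6 libraries, and was not called.

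The rest of the SLC26 family and the other chloride channels held no call. Of the 7 tested SLC26 genes edgeR called 0, with 1 at an unadjusted p under 0.05, DESeq2 called 0, and 6 were below 0, with a median of -0.44 (-0.26 with all 6 libraries). Slc26a11 stood at -0.44 (-0.26 with all 6 libraries), the sulfate transporter gene Slc26a2 at -0.26 (-0.21) and Slc26a8 at -0.49 (-0.49), and Slc26a5 was listed at 0 in all libraries. Of 21 chloride channel genes edgeR called 0, with 3 at an unadjusted p under 0.05, DESeq2 called 0, and the median was -0.03. Clcn5, the endosomal chloride and proton exchanger, stood at -0.40 (-0.46 with all 6 libraries), Clca2 at -0.34 (-0.24) and Clcn1, a muscle channel, at 1.36 in this fit and at -0.86 with all 6 libraries, which include the muscle-bearing WT replicate 1. Of 23 cotransporter, bicarbonate and proton transport genes edgeR called 0, with 5 at an unadjusted p under 0.05, and DESeq2 called 1. Slc4a11 stood at 0.77 (1.09 with all 6 libraries), Slc4a5 at 0.44 (0.67) and Slc9a2, under 0.2 FPKM in every library, at 2.13 (1.45).

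Among 11 tested potassium channel genes, 1 was called. Kcne3, the beta subunit that with Kcnq1 forms a basolateral channel driving chloride secretion, had 4.50, 4.77 and 4.40 FPKM in KO replicates 1 to 3, and averaged 4.55 ± 0.190 FPKM in KO and 8.59 ± 0.667 FPKM in WT (SD, n = 3 each). Every KO library was below every WT library, and it fell by 0.85 (SE 0.15, adjusted p = 0.0143). The calcium-activated channel gene Kcnn4 stood at 0.37 (0.59 with all 6 libraries) and Kcnk6 at 0.23 (0.12), neither called. Of the other aquaporins 5 were tested and edgeR called 0, with 2 at an unadjusted p under 0.05 and DESeq2 calling 0. Aqp1, of capillary endothelium, averaged 131 ± 8.64 FPKM in KO and 182 ± 56.9 FPKM in WT (SD, n = 3 each) at -0.19 (-0.46 with all 6 libraries). Aqp4 stood at -0.25 and, with its sign turned, at 0.10 with all 6 libraries, and Aqp3, of basal and squamous cells, was at 11.6 FPKM in WT replicate 1 and at 0.0347 to 0.449 FPKM elsewhere.

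Of 14 receptor genes that govern liquid transport edgeR called 0, with 5 at an unadjusted p under 0.05, and DESeq2 called 3. P2ry2, the receptor for extracellular ATP and UTP, stood at -0.32 (-0.70 with all 6 libraries) and the beta-1 adrenergic receptor gene Adrb1 at 0.47 (0.35). Vipr1, a receptor for vasoactive intestinal peptide, stood at 0.31 and, with its sign turned, at -0.08 with all 6 libraries. In the thiocyanate and hydrogen peroxide system, which uses the thiocyanate that pendrin can carry, edgeR called 0 of 8, with 1 at an unadjusted p under 0.05, and DESeq2 called 0. All 8 genes were low: Duox1 was at 1.12 to 2.13 FPKM in KO and 1.33 to 2.73 FPKM in WT, and Lpo, lactoperoxidase, and Duox2 stayed under 1 FPKM in every library. Slc5a8, a monocarboxylate and iodide transporter gene, stood at -0.75 (-1.09 with all 6 libraries).

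The cytokine lists held 6 of the 11 calls, and nothing is read from that number, since the lists were chosen with earlier results known. In the list of IL-4 and IL-13 signalling and the genes it induces, 4 of 14 were called, all lower in KO. Il4r, the receptor chain shared by both cytokines, had 56.1, 51.7 and 60.8 FPKM in KO replicates 1 to 3, against 113, 92.8 and 74.5 FPKM in WT replicates 1 to 3, and fell by 0.57 (SE 0.09, adjusted p = 0.0108). Retnla, a secreted protein of macrophages and epithelium induced by IL-4 and IL-13, had 10.4, 5.18 and 6.85 FPKM in KO replicates 1 to 3, against 16.7, 19.8 and 15.5 FPKM in WT replicates 1 to 3, and fell by 1.24 (SE 0.25, adjusted p = 0.0259). Alox15, a lipoxygenase, fell by 0.78 (SE 0.18, adjusted p = 0.0448), and Postn, the matrix protein periostin, by 0.29 (SE 0.05, adjusted p = 0.0138). Postn had its lowest level of all libraries in WT replicate 1, at 110 FPKM, so its groups overlapped with all 6. The other 10 genes were not called and the median of the list was -0.05.

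In the IL-17 list 2 of 15 genes were called, both lower. Lcn2, the iron-scavenging protein lipocalin 2, was called in both fits, at 3.30 ± 0.262 FPKM in KO and 234 ± 92.4 FPKM in WT (SD, n = 3 each). Defb4, a beta-defensin, had 217, 166 and 232 FPKM in KO replicates 1 to 3, against 473, 358 and 312 FPKM in WT replicates 1 to 3, and fell by 0.71 (SE 0.12, adjusted p = 0.0120). Il17ra stood at 0.23 (0.27 with all 6 libraries) and was not called, and Il17a and Il17f were listed at 0 in all 6 libraries. The median of the list was -0.16 without WT replicate 1 and 0.04 with all 6 libraries, so its direction turned with that library.

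**Figure D5:**
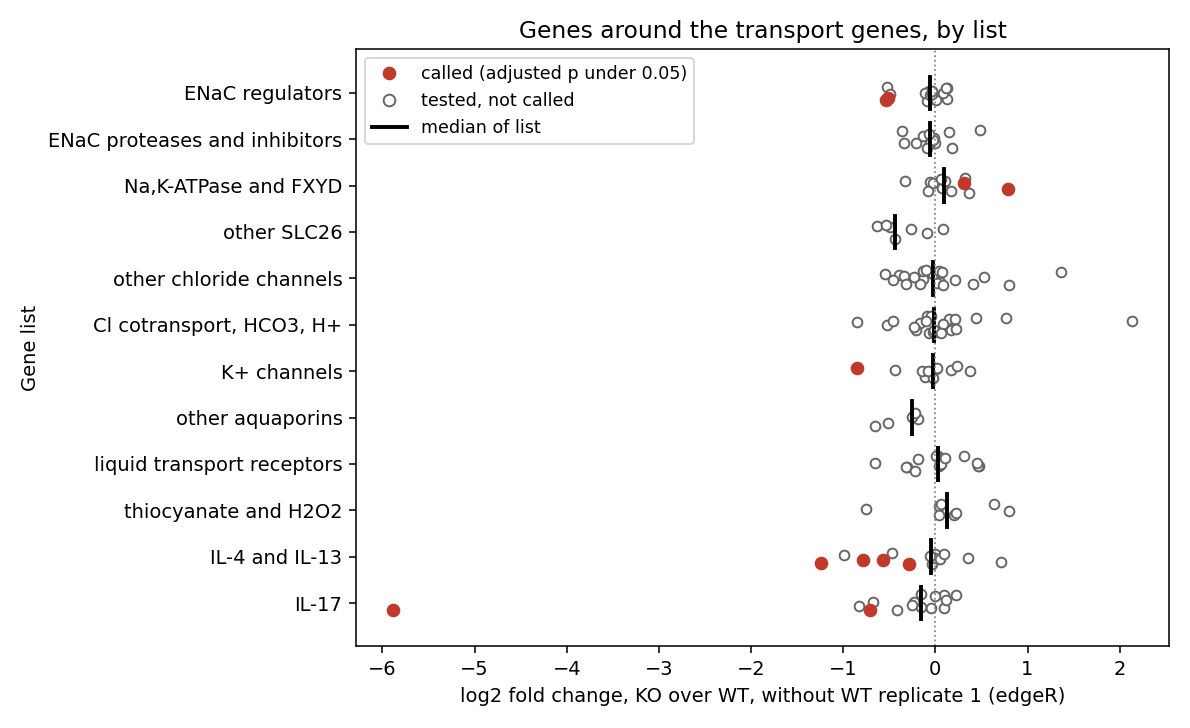
log2 fold change of KO over WT without WT replicate 1 for every tested gene of the 12 lists (1 point a gene; filled, called at an edgeR adjusted p under 0.05; open, not called; black bar, median). The called genes are 9 lower, with Lcn2 at -5.89, and 2 higher, both in the Na,K-ATPase and FXYD list.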

How the data were processed

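CASAVA, DESeq2 1.42.0, featureCounts 2.0.6, StringTie 2.2.3 and HISAT2 2.2.1 are listed without roles or settings, per the submitters' processing notes, and the build is mRatBN7.2. For 40995 genes the authors deposited unnormalized counts and FPKM values, which were checked to equal count over gene length over a DESeq2-type size factor. The authors' deposited table of 192 genes gives p-values, log2 fold changes and, per library, a signal equal to the count divided by a size factor. In every library even counts from 2 to 10 outnumbered odd counts from 1 to 9 (3171 against 1641 genes in WT replicate 1), the pattern left when each mate adds a count, so independent fragments are fewer than reads.

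Counts were tested with edgeR 4.0.16 in R 4.3.3: TMM, filterByExpr (minimum count 10, minimum total 15), quasi-likelihood test, genotype as the single term, Benjamini-Hochberg adjustment over all tested genes, threshold 0.05. Standard errors are the log2 fold change over the square root of F. The members, lists, named-gene rule and alternatives were chosen with earlier results of these data known. The rule named the 10 members, per list the called genes (up to 6, topped up to 3 by smallest p), 3 neighbours on each side of Slc26a4, the 5 nearest profiles (log2(CPM + 0.5)), the leading markers and Tmprss2. Of 297 symbols, 289 matched by name, 7 through RefSeq (GRCr8, names alone) and 1 was not matched. The labels call the rats biological replicates. Alternatives were other normalizations, DESeq2, limma 3.58.1, other filters, a replicate block and leaving out each library. The thyroid marker list is not reported here in full.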

Additional observations from a re-analysis of the deposited data

How the results depend on the processing

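The number of genes called with all 6 libraries, 10 in the reported fit, stayed within 1.5 times of it with RLE or upper quartile factors, limma-voom, both FPKM pseudocounts, a robust fit, both other filters and protein-coding genes alone (7 to 14). It was 501 with DESeq2, 1676 with limma-voom and quality weights and 2 with the replicate block, and 1 to 758 with a library left out, 758 being without WT replicate 1. Without WT replicate 1 it was 758 in the reported fit, 1184 with DESeq2 and 1707 with no filter. Of the 10 transport genes, 1 was called in each reported fit. With all 6 libraries it was 2 with DESeq2 or quality weights, where Scnn1b joined Slc26a4, and 0 with limma-voom, with log2(FPKM + 1), with log2(FPKM + 0.1) and with the replicate block; with a library left out it was 0 to 1. Without WT replicate 1 it was 2 with DESeq2, limma-voom or no filter, again with Scnn1b.

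Slc26a4 had a log2 fold change below 0 in every fit, from -2.56 to -1.94 over the alternatives to the 6-library fit, leave-outs included, other than log2(FPKM + 1), where it was -0.74; that pseudocount exceeds its level in every KO library. Scnn1b lay between -0.68 and -0.46 over the same settings. The sign of Slc12a2 turned with quality weights (-0.037) and without KO replicate 1, KO replicate 2, WT replicate 1 or WT replicate 2, over a leave-one-out range of -0.17 to 0.21. That of Aqp5 turned without WT replicate 1 (0.0074), over a range of -0.21 to 0.0074. No other member changed sign. The replicate numbers were not treated as pairing, because the labels do not say that they pair animals. Deviations from the group means of same-numbered libraries correlated, across genes, at -0.08, 0.03 and -0.08. The WT mean includes WT replicate 1, which stood apart, so these correlations cannot show whether a pairing exists. With a minimum of 5 CPM, 2 of the 5 nearest profiles were shared. The order of levels was the same in TPM.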

Other observations

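With a minimum mean of 5 CPM, the profiles nearest to that of Slc26a4 included 3 further genes. Adh7, an alcohol and retinol dehydrogenase of squamous and upper airway epithelium, had 1.08 to 1.41 FPKM in KO and 4.35 to 9.63 FPKM in WT, with 9.63 FPKM in WT replicate 1 and 4.98 and 4.35 FPKM in WT replicates 2 and 3. Fndc1, a fibronectin domain protein, averaged 1.89 ± 0.381 FPKM in KO and 8.04 ± 3.98 FPKM in WT (SD, n = 3 each), and Aoc1, diamine oxidase, 5.04 ± 0.638 FPKM in KO and 14.9 ± 0.916 FPKM in WT, which was called lower by edgeR in both fits. Of 3 tested genes listed as submucosal gland markers, Lyz2 stood at a log2 fold change of 0.07 and Lpo at 0.80 without WT replicate 1, neither called, and at -0.16 and 1.15 with all 6 libraries. Lyz2 was at 5866 to 9806 FPKM over the 6 libraries and Lpo at 0.0287 to 0.772 FPKM. Whether the Lyz2 reads came from gland cells was not tested. The other, Dmbt1, a secreted scavenger receptor of mucosal epithelium, had 0.487 to 0.954 FPKM in KO and 1.95 to 3.07 FPKM in WT and was called lower by edgeR without WT replicate 1 but not with all 6 libraries.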
